A study of Mus musculus with 42 samples.

Results

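The transcripts of 40 mitosis and spindle genes were followed through the reprogramming of mouse embryonic fibroblasts (MEF) to induced pluripotent stem cells (iPSC) and in iPSC without Tet1. The genes were taken by name: entry regulators (Cdk1, Ccna2, Ccnb1, Ccnb2, Cdc25b, Cdc25c), mitotic kinases (Aurka, Aurkb, Plk1), the spindle checkpoint (Bub1, Bub1b, Mad2l1, Ttk), exit factors (Cdc20, Ube2c, Pttg1, Espl1), centromere, kinetochore and passenger proteins (Cenpa, Cenpe, Cenpf, Ndc80, Nuf2, Birc5, Incenp), kinesins and spindle organisers (Kif2c, Kif4, Kif11, Kif20a, Kif23, Tpx2, Prc1, Nusap1), cytokinesis factors (Anln, Ect2, Racgap1) and chromosome structure with Ki-67 (Top2a, Smc2, Smc4, Ncapd2, Mki67). All 40 were found among the 48321 gene names of each of the 2 deposited count tables, and all 40 passed the filter on low counts in both.

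A cell enters mitosis when cyclin B and CDK1, freed of inhibitory phosphate by CDC25 phosphatases, become active; Aurora and Polo kinases and kinesins then build the spindle. The spindle checkpoint holds back the anaphase-promoting complex and its coactivator CDC20 until every kinetochore is attached, after which securin is destroyed, separase opens the sister chromatids and the central spindle directs cytokinesis. Most of these genes are transcribed in G2 and M phase, under the MuvB complex with B-MYB and FOXM1, and mouse pluripotent cells are known for short cell cycles with little G1.

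The study had 14 groups of 3 libraries of stranded mRNA-seq, 42 in all, from male mice. The first table held the series that the labels call naivex2: cells with the transgenes Tg(Tet1-mCherry)B37Koh on a B6; 129S4 background and Tg(Pou5f1-EGFP)2Mnn/J on B6;CBA, labelled Tg(mCherry)/wt; Tg(GFP)/wt. Its 7 groups were MEF at day 0, sorted mCherry+ GFP- cells at days 10, 12 and 14, sorted mCherry+ GFP+ cells at days 12 and 14, and clonal iPSC at passage 6 to 7. The second table held the totalx2 series, with the alleles Tet1tm1.1Koh on B6 and Pou5f1tm2Jae/J on B6;129S4 and the same genotype label: mCherry+ GFP- cells at days 8, 10 and 12, and mCherry+ GFP+ cells at days 10 and 12. It also held clonal iPSC at passage 6 to 7 of the strain with Tet1tm1Koh and the same Pou5f1-EGFP transgene as naivex2, either Tet1 wt/wt (WT) or mut/mut (KO), both with 1 GFP copy. By these names, mCherry reported Tet1 and GFP reported Pou5f1, through a different Pou5f1 reporter in naivex2 and totalx2. The replicates of the sorted groups were 3 independent lines per series, and those of iPSC were 3 clones grown on feeder cells that were then depleted. The p-values thus rest on the spread between lines or clones within groups, estimated over all 7 groups of a table and not only those compared. In the titles, naivex2 MEF and iPSC carry the same 3 line labels as the naivex2 sorted groups. The 2 tables were separate sequencing batches, and values were tested only within a table.

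Of the 40 genes, 33 had a promoter in the RefSeq table (GRCm38.p6, 250 bases before to 50 after the annotated start). Promoters of 6 genes are shown. The first 5 carry, upstream of and close to the start, the pair of motifs that most of the others share within the whole window. In several of the others, such as Plk1, Ttk and Cenpa, the CHR begins only after the start. The promoter of Cdc25b holds a CCAAT box without a CHR, as do those of Ccnb1, Bub1 and Cenpe. Each line gives the 150 bases upstream of the start on the gene's strand, 5′ to 3′. Capitals mark the cell cycle genes homology region (CHR, TTTGAA or its reverse complement TTCAAA) and the CCAAT box (CCAAT or its reverse complement ATTGG), the element known to bind NF-Y; the CHR is known to bind MuvB complexes.

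Cdk1 (chr10:69352913-69353062, - strand): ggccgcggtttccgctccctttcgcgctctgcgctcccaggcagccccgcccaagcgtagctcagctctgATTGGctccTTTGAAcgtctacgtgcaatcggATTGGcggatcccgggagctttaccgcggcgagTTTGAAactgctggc
Cdc20 (chr4:118437344-118437493, - strand): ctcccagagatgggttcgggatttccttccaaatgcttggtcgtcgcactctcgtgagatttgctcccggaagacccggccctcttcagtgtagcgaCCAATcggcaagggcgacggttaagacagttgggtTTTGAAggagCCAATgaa
Top2a (chr11:99024190-99024339, - strand): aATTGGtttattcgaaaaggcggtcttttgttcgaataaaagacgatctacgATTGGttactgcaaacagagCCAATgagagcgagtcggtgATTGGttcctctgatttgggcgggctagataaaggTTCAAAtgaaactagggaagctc
Kif11 (chr19:37376232-37376381, + strand): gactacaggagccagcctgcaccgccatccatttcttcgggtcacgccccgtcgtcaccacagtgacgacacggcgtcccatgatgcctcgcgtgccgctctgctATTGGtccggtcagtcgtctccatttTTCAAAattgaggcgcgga
Espl1 (chr15:102296143-102296292, + strand): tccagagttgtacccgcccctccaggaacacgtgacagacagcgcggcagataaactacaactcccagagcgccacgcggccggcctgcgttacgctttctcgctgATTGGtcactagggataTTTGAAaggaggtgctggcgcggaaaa
Cdc25b (chr2:131186798-131186947, + strand): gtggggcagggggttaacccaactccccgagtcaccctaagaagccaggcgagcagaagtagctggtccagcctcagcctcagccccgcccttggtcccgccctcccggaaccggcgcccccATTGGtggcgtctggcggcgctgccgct

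A CHR was present in 24 of the 33 promoters (72.7%), against 20.2% of 27025 genes with a promoter in the table. The 73 other mitotic genes with a promoter held it in 49.3% of cases, and the 32 DNA replication genes in 12.5%. CCAAT boxes were found in 25 of the 33 (75.8%, against 41.1% of all genes), and both motifs in 21 (63.6%, against 7.97%). A CHR whose first base lay within 50 bases of the start was found in 21 promoters (63.6%, against 5.72%). Ccnb1, Cdc25b, Bub1 and Cenpe held a CCAAT box without a CHR, Ndc80, Kif2c and Anln a CHR without a CCAAT box, and Mad2l1, Pttg1, Nuf2, Birc5 and Nusap1 neither. The variant TTTAAA, which does not overlap TTTGAA as a match, stood in 9 of the 33 (27.3%, against 14.9%), Ccnb1 among them. These are letters in a window and not measured binding sites. For 21 of the 33 genes, the first 30 bases after the start were found in a transcript of a second annotation (GENCODE). The windows of Kif2c, Pttg1 and Kif4 lay inside the counted gene span, and motifs at other starts were not searched.

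**Figure D1:**
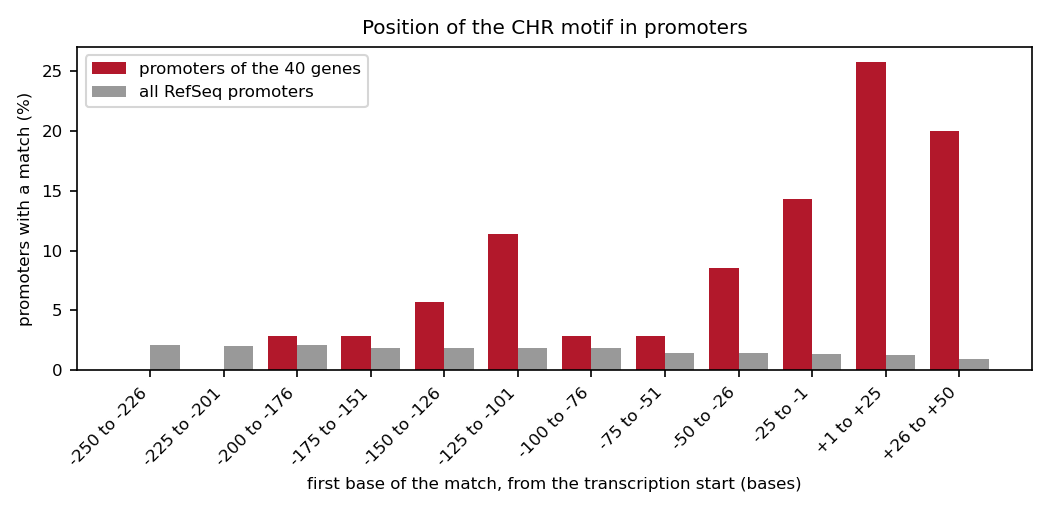
Share of promoters (%) whose CHR match begins in each 25-base interval, by distance in bases from the annotated transcription start, for the 35 promoters of the matched genes (red) and all RefSeq promoters (grey). The share in red was highest at +1 to +25 (25.7%, against 1.31% of all promoters) and at +26 to +50 (20%, against 0.971%).

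Each library held between 6540256 and 20783265 counted reads and 18838 to 21666 detected genes, so the members, all at 12.04 CPM or more in every library (CPM, read counts scaled to the library total, with TMM), were above the limit of 3 counts (0.139 to 0.444 CPM). Mitochondrial genes took 1.75% to 12.2% of counts, and 2 libraries stood above 8%: replicate 1 of naivex2 day 10 GFP- (8.99%) and replicate 1 of WT iPSC (12.2%). Both stood apart in the members too: 25 of the 40 were above the other 2 replicates of their group in both libraries, and 10 were below them in both. Mki67 was 0.88 and 1.10 higher on the log2 scale than the mean of the other replicates, and Espl1 0.79 and 1.11 lower. Counts of called members in the comparisons that use them, and counts by highest group, are therefore given with and without these libraries. Counts over the other gene lists are given with them. The part of RNA quality in them was not tested. Summed pluripotency markers (10 genes) ran from 1.89 to 3.17 CPM in MEF to 4112 to 4412 CPM in naivex2 iPSC. Summed fibroblast markers (10 genes) ran from 14660 to 15910 CPM in MEF to 886 to 2706 CPM in those iPSC, which had been grown on feeders. Summed leukocyte, trophectoderm and keratinocyte markers stayed between 31.6 and 369.8 CPM in all 14 groups. Pou5f1 RNA was present in GFP- as well as GFP+ cells. At day 12 it was at 634.5 to 699.5 CPM in naivex2 GFP- and 728.5 to 801.3 CPM in GFP+ cells. In totalx2 day 12 it was at 341.7 to 366.4 CPM and 541.9 to 572.6 CPM, and in MEF at 0.946 to 1.47 CPM. The GFP gate thus did not split cells with Pou5f1 RNA from cells without it.

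In MEF, the summed level of the 40 genes was 5979 to 6327 CPM over the 3 libraries. In naivex2 day 10 GFP- cells it was 9996 to 12020 CPM, and the groups did not overlap. It was 7421 to 9269 CPM in naivex2 iPSC, below the day 10 cells and above MEF. In the second table it was lowest in totalx2 day 12 GFP- cells (5962 to 6813 CPM) and day 8 cells (6260 to 7165 CPM), whose ranges overlapped. The totalx2 day 12 GFP+ cells stood at 8666 to 9430 CPM and KO iPSC at 8848 to 9300 CPM. WT iPSC spread from 8137 to 11420 CPM, the last being the library with 12.2% mitochondrial counts. In these bulk samples, fewer cells in mitosis and less RNA per cell cannot be told apart.

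**Figure D2:**
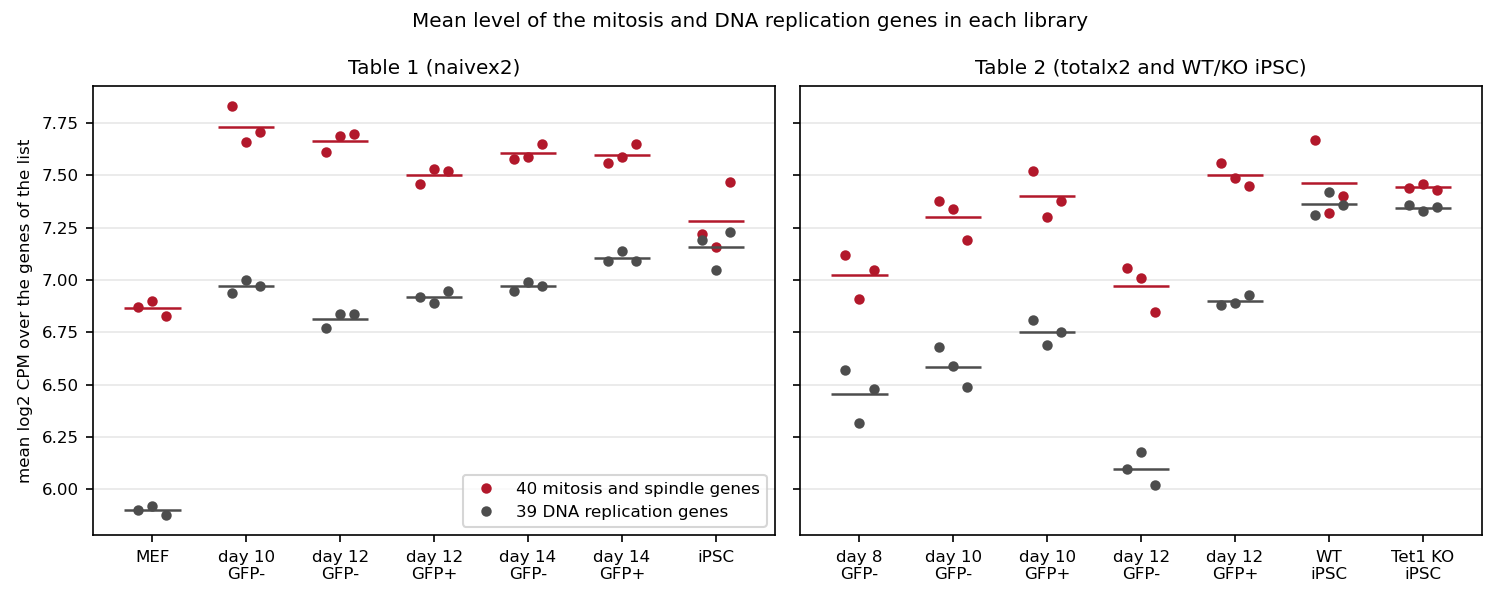
Mean log2 CPM over the 40 mitosis and spindle genes (red) and over 39 DNA replication genes (grey) in each library, with lines for group means, for the first table (left, naivex2) and the second (right, totalx2 and WT or KO iPSC). The difference between the lists was 0.94 to 0.98 in MEF and 0.04 to 0.24 in naivex2 iPSC.

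The genes did not peak in the same group. By group mean, 20 of the 40 were highest in naivex2 day 10 GFP- cells, 8 in day 14 GFP+ cells and 7 in day 12 GFP- cells, with 2 each in MEF and iPSC and 1 in day 14 GFP- cells. MEF was the lowest group for 30 of them and iPSC for 8. In the second table, 17 were highest in WT iPSC, 9 in day 12 GFP+ cells and 8 in KO iPSC, and 23 were lowest in day 12 GFP- cells. Without the 2 high-mitochondrial libraries, an alternative chosen after seeing the data, 14 were highest in naivex2 day 10 GFP- cells, 11 in day 14 GFP+ cells and 8 in day 12 GFP- cells. In the second table, the count for WT iPSC was then 3, with 15 in KO iPSC and 13 in day 12 GFP+ cells, so the count for WT iPSC rested on 1 library. Per kilobase of annotated exon (approximate, since reads were counted over whole gene bodies), Cdc20, the coactivator of the anaphase-promoting complex, was at 134 CPM per kb in naivex2 day 10 GFP- cells, above the other members, and at 145 without the high-mitochondrial library. Topoisomerase II alpha (Top2a) was at 115 CPM per kb with and without that library, the proliferation marker Mki67 at 112 with it and 87.1 without it, and cyclin B2 (Ccnb2) at 104 and 99.2. Cdc25b was near the bottom at 9.51 and 9.81 CPM per kb.

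**Figure D3:**
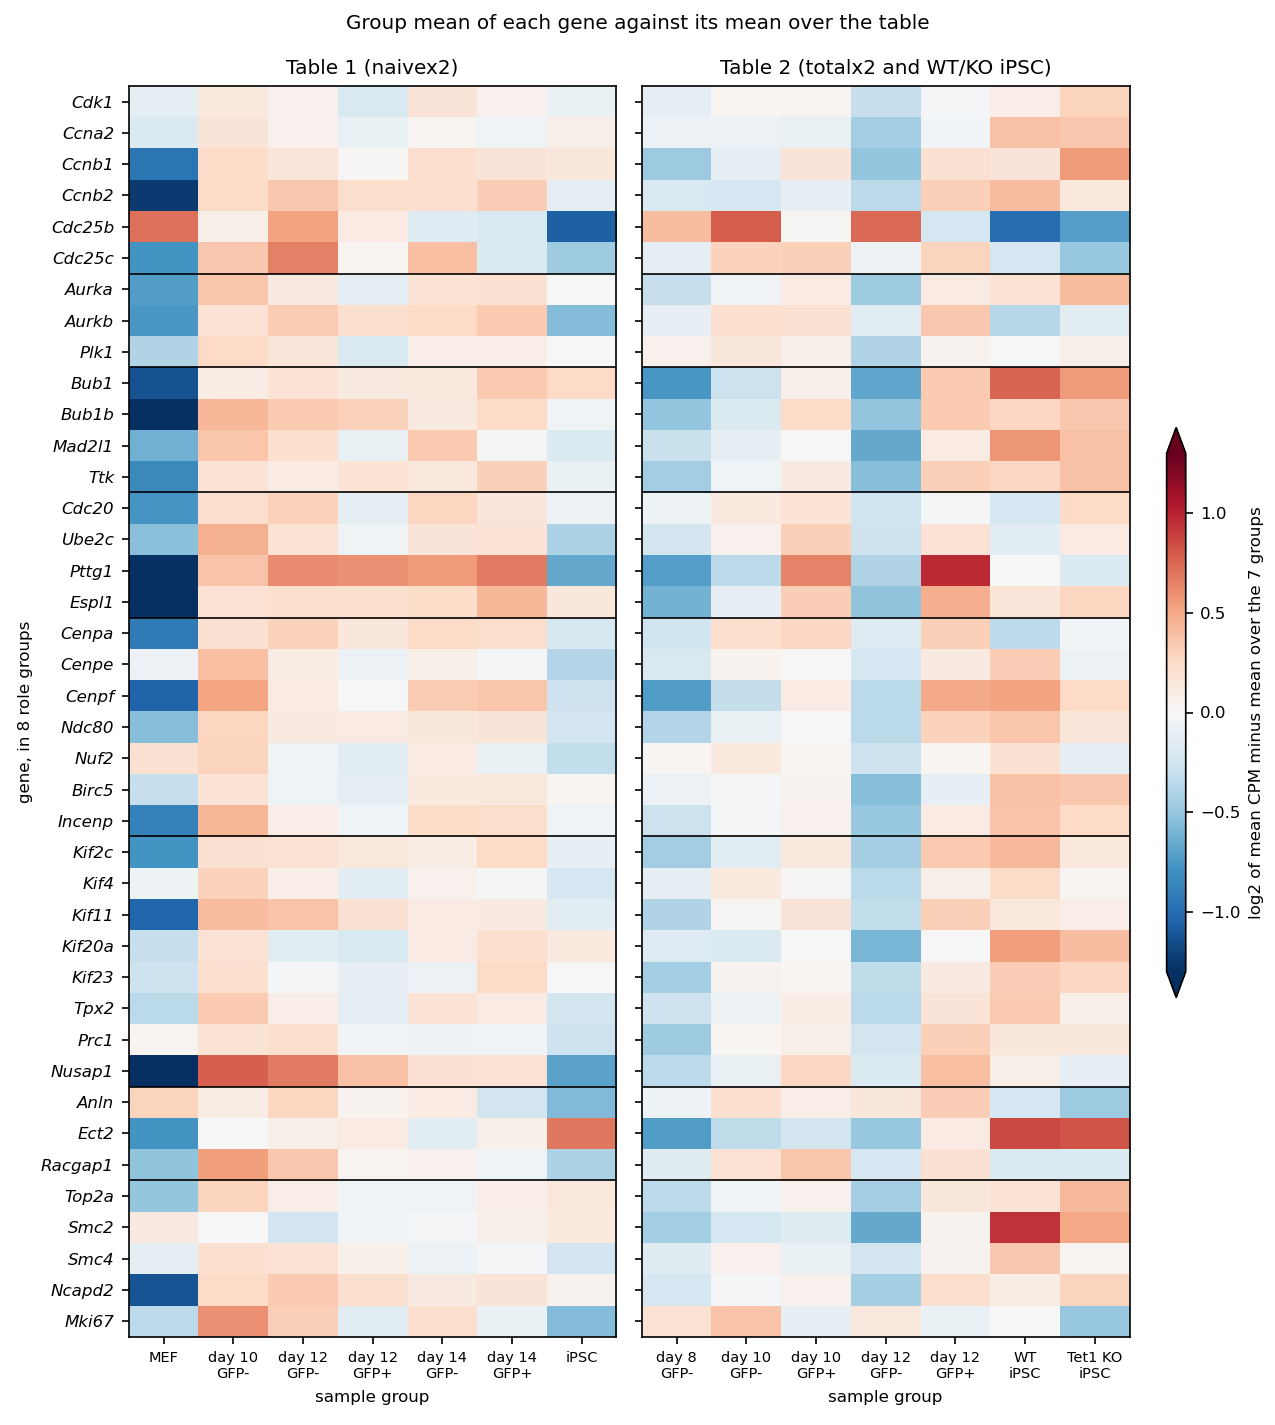
Group mean CPM of each gene as the log2 difference from the mean of that gene's 7 group means in the same table (colour, blue lower and red higher), with genes in 8 role groups. Most genes are blue in MEF and in totalx2 day 12 GFP- cells, while Cdc25b is red in both and blue in the iPSC columns.

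The first comparison asks how these genes differed between the starting fibroblasts and sorted day 10 cells. In naivex2 day 10 GFP- cells against MEF, 35 of the 40 rose and 1 fell, with a median log2 difference of 0.96. Over the 16132 genes tested, 38.8% were called higher and 37.6% lower, 76.4% in all, with a median of 0.06. The 4 checkpoint genes, the 4 exit genes and the 3 mitotic kinases all rose, as did 5 of 6 entry genes, 6 of 7 centromere and kinetochore genes, 7 of 8 kinesins and organisers, 2 of 3 cytokinesis genes and 4 of 5 chromosome structure genes.

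Securin (Pttg1), the inhibitor of separase, was at 24.8, 22.1 and 21.1 CPM in the 3 MEF libraries and at 108, 131 and 152 CPM at day 10, a log2 difference of 2.52 (SE 0.19, adjusted p = 3.46e-10) by edgeR's quasi-likelihood test with Benjamini-Hochberg adjustment, the test and scale used throughout. The lowest day 10 library was above 4 times the highest MEF library, and Pttg1 rose most of the 40. Nusap1, which bundles spindle microtubules, was at 43.5, 46.2 and 45.8 CPM in MEF and 272, 182 and 204 CPM at day 10, a rise of 2.28 (SE 0.11, adjusted p = 1.53e-13). The checkpoint kinase-like protein Bub1b went from 104, 116 and 102 CPM to 399.8, 362 and 386 CPM, a rise of 1.84 (SE 0.08, adjusted p = 1.08e-14). Separase itself (Espl1), the protease that cleaves cohesin, was at 80.9, 85 and 78.1 CPM in MEF and 168, 278 and 304 CPM at day 10, a rise of 1.62 (SE 0.14, adjusted p = 1.05e-09). For none of these 4 genes did the libraries of the groups overlap. They were chosen as the largest called rises, and the share without overlap over all genes was not counted, here or in any later comparison.

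Cyclin B1 (Ccnb1), the activating partner of CDK1, stood at 99.4, 108 and 102 CPM in MEF and 205, 248 and 254 CPM at day 10 and rose by 1.2 (SE 0.09, adjusted p = 1.79e-10) on the log2 scale. The rise of Cdk1 itself was small, from 181, 185 and 179.6 CPM to 188, 226 and 233 CPM, or 0.25 (SE 0.08, adjusted p = 0.0105). Aurora B (Aurkb), the kinase of the chromosomal passenger complex, rose by 0.95 (SE 0.1, adjusted p = 1.64e-08) and Polo-like kinase 1 (Plk1) by 0.65 (SE 0.09, adjusted p = 1.12e-06). Top2a, which untangles sister chromatids, rose by 0.8 (SE 0.08, adjusted p = 1.67e-08). Mki67, which coats mitotic chromosomes and marks cycling cells, was at 567, 636 and 558 CPM in MEF and 1612, 834 and 919 CPM at day 10, a rise of 0.93 (SE 0.18, adjusted p = 0.000118). Its first day 10 library is the one with 8.99% mitochondrial counts and lies far above the other 2, and without it the rise was 0.6 (adjusted p = 0.000209).

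Cdc25b, the phosphatase that starts the activation of CDK1, was the 1 member that fell: it was at 55.6, 57.9 and 51.4 CPM in MEF and 33.2, 35.6 and 37.5 CPM at day 10, a difference of -0.63 (SE 0.11, adjusted p = 3.54e-05). Anillin (Anln, 387, 399.6 and 391 CPM in MEF and 369, 318 and 340.3 CPM at day 10), Nuf2 (70.8, 72.3 and 70.5 against 97.9, 63.3 and 65.7 CPM), Prc1 (217, 236 and 219 against 249.5, 239.7 and 249.9 CPM) and Smc2 (252, 249.8 and 242 against 304, 186 and 197 CPM) did not pass the test. Without the high-mitochondrial library, 34 members were called higher and 3 lower, with Pttg1 at 2.66, Nusap1 at 2.12, Espl1 at 1.86 and Cdc25b at -0.57.

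The other genes of the process gave similar counts. Of 87 other mitotic genes tested, 71 rose and 8 fell (median 0.87), among them the cohesin acetyltransferase Esco2 (log2 difference 3.07), the NDC80-complex subunit Spc24 (2.42) and the kinesin Kif18a (1.51). Of 39 DNA replication genes, 35 rose and 2 fell. Of 23 regulators of such genes (MuvB, B-MYB, FOXM1, E2F and NF-Y), 12 rose and 3 fell. Mybl2, which encodes B-MYB, was at 883 ± 71.7 against 42.8 ± 1.6 CPM (SD, n = 3), a difference of 4.37 (SE 0.09, adjusted p = 2.6e-19). Foxm1, named here after its values were seen, was at 135 ± 5.53 against 142 ± 0.445 CPM and did not pass the test (adjusted p = 0.36).

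**Figure D4:**
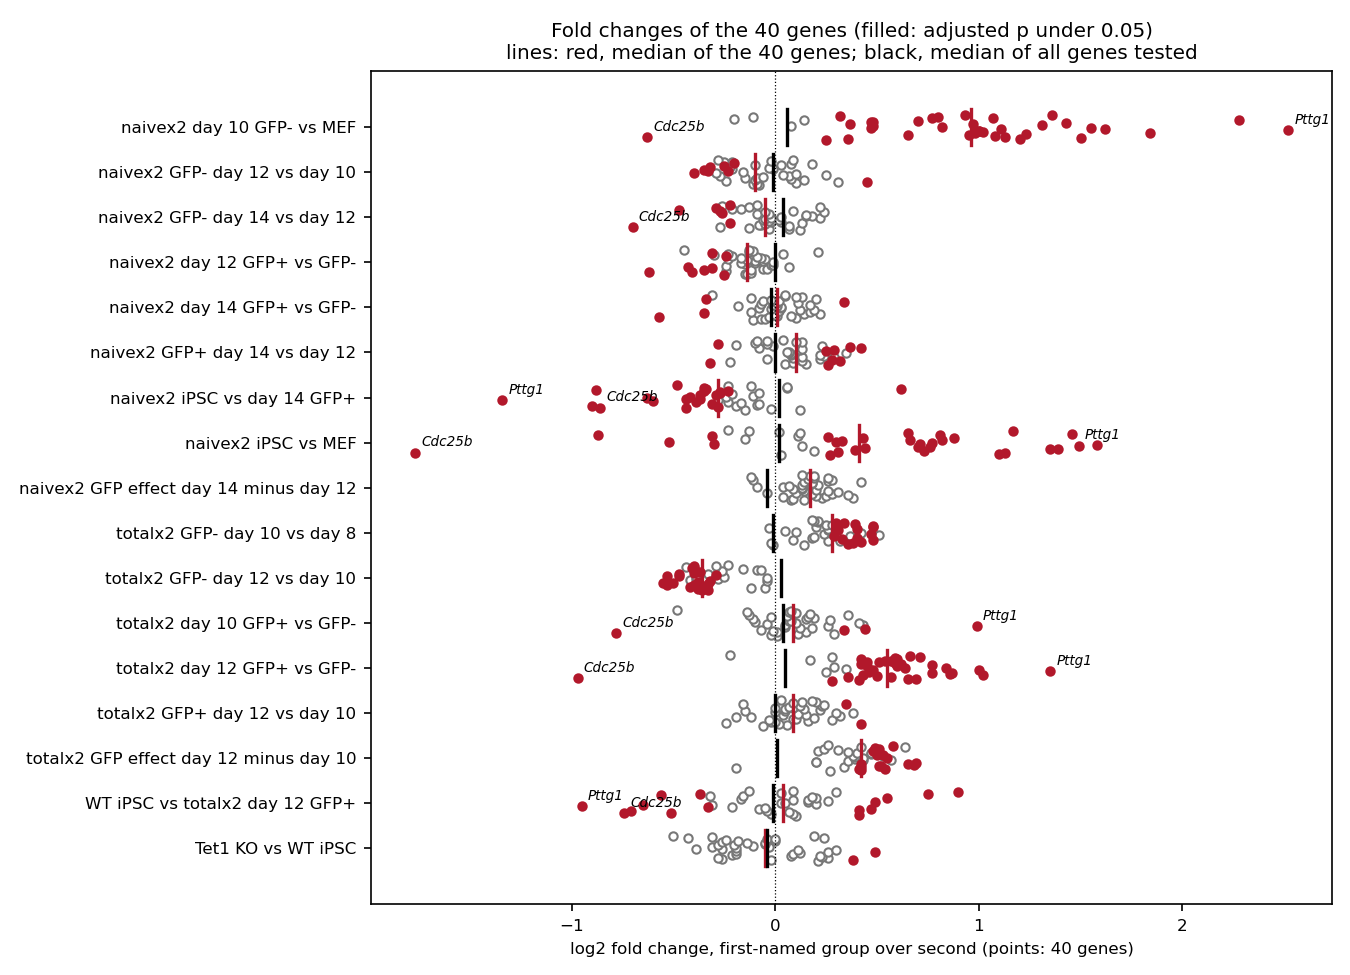
Log2 fold changes of the 40 genes (points) in the 17 comparisons, filled red where the adjusted p was under 0.05, with the median of the 40 (red line) and of all genes tested (black line). The points shift furthest to the right in naivex2 day 10 GFP- cells against MEF (median 0.96) and in totalx2 day 12 GFP+ against GFP- cells (median 0.55), with Cdc25b to the left in both.

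Fewer members were called between the later naivex2 groups. Between GFP- cells at days 12 and 10, 1 member rose and 7 fell (10.1% of all genes were called higher and 10.1% lower, 20.2% together). Cdc25b rose, from 33.2, 35.6 and 37.5 CPM to 50.8, 43.4 and 50.8 CPM, by 0.45 (SE 0.11, adjusted p = 0.0087). Cenpf, Incenp, Nuf2 and Kif20a had the lowest values among those that fell, at -0.4, -0.35, -0.33 and -0.32. Without the high-mitochondrial day 10 library, 2 genes were called higher and 0 lower, with Cdc25b at 0.42 and Cenpf at -0.22. Without replicate 1 or replicate 2 of the day 12 cells, 1 was called higher and 0 lower, and without replicate 3 there were 3 calls.

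Between GFP- cells at days 14 and 12, 0 members rose and 7 fell (20.6% of all genes were called higher and 16.2% lower, 36.8% together). Cdc25b, at 50.8, 43.4 and 50.8 CPM at day 12 and 30.5, 28 and 31 CPM at day 14, fell by 0.7 (SE 0.11, adjusted p = 7.41e-05). Nusap1 (-0.47, adjusted p = 0.00173) and Racgap1, a protein of the central spindle (-0.29, adjusted p = 0.00281), followed. Without replicate 1 of the day 14 cells there were 3 calls. Summed marker levels moved in the same comparison: fibroblast markers went from 788 to 1267 CPM at day 12 to 2983 to 4959 CPM at day 14 (9 of 10 genes rose, 0 fell). Trophectoderm markers went from 221.9 to 241.8 CPM to 343 to 369.8 CPM (6 of 7 tested rose), and keratinocyte markers from 130.5 to 156.3 CPM to 277.4 to 323.9 CPM (4 of 5 tested rose). Pluripotency markers went from 2808 to 2900 CPM to 3230 to 3401 CPM (7 of 10 rose, 1 fell). Of 39 DNA replication genes, 14 rose and 2 fell, and of 87 other mitotic genes, 10 rose and 12 fell. The part of any of these shifts in the fall of the 7 members was not tested.

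The naivex2 cells were sorted by GFP at days 12 and 14. At day 12, 0 members were higher and 8 lower in GFP+ cells (9.93% of all genes were called higher and 6.69% lower, 16.6% together). Cdc25c, a phosphatase that activates CDK1, was at 58, 57.9 and 61.5 CPM in GFP- and 37.5, 38.3 and 39.8 CPM in GFP+ cells, a difference of -0.62 (SE 0.11, adjusted p = 0.000535). Cdc20 was at 259, 254 and 278 CPM and 189.5, 192 and 206 CPM, or -0.43 (SE 0.11, adjusted p = 0.00925). Plk1 was at 172, 176 and 196 CPM and 138, 138 and 149 CPM, or -0.35 (SE 0.09, adjusted p = 0.00841), and lost its call without replicate 3 of the GFP- cells. The count was 3 without that library, 4 without replicate 1 of the GFP+ cells and 5 without replicate 2 of either group. Of 39 replication genes, 7 were higher and 0 lower in GFP+ cells, and of 87 other mitotic genes, 4 and 4.

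At day 14, 1 member was higher and 3 lower in GFP+ cells (14.4% of all genes were called higher and 16.9% lower, 31.3% together). Cdc25c was again lower, at 46.7, 50.9 and 49.8 CPM in GFP- and 29.6, 34.9 and 34.3 CPM in GFP+ cells (-0.57, SE 0.11, adjusted p = 0.000559). Mad2l1, the checkpoint protein that holds CDC20, and Anln were lower as well, at -0.35 (adjusted p = 0.0105) and -0.34 (adjusted p = 0.00876), while Kif23, the kinesin of the central spindle, was higher by 0.34 (adjusted p = 0.0172). The call of Kif23 was lost without replicate 1 of the GFP- cells or replicate 3 of the GFP+ cells, and those of Mad2l1 and Anln without replicate 2 of the GFP+ cells (2 calls). Of 39 replication genes, 11 were higher and 1 lower in GFP+ cells, and of 87 other mitotic genes, 4 and 5. A direct test of whether the GFP difference itself changed from day 12 to day 14 called 0 of 40 by edgeR's quasi-likelihood test (1.54% of all genes) and 0 by DESeq2, with 5 at an unadjusted p under 0.05. Within GFP+ cells, 7 rose and 2 fell from day 12 to day 14 (14.5% of all genes were called higher and 16% lower, 30.5% together). The 4 largest rises were Kif20a (0.42), Kif23 (0.37), Aurka (0.32) and Incenp (0.29). There were 3 calls without replicate 2 of the day 14 cells, 4 without replicate 1 or replicate 2 of the day 12 cells and 5 without replicate 3 of the day 14 cells.

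Clonal naivex2 iPSC had lower levels of many members than the day 14 GFP+ cells: 1 was higher and 22 were lower, with a median of -0.28. Of all genes, 24.3% were called higher and 22.5% lower (46.8% together). The lower ones were 6 of 8 kinesins and organisers, 5 of 7 centromere and kinetochore genes, 3 of 6 entry genes, 2 of 4 checkpoint genes, 2 of 4 exit genes, 2 of 3 cytokinesis genes, 1 of 3 mitotic kinases and 1 of 5 chromosome structure genes. Pttg1 fell from 154, 157 and 172 CPM to 85.8, 63.5 and 42 CPM, a difference of -1.34 (SE 0.18, adjusted p = 5.78e-06). The 3 iPSC libraries spread widely but lay below every day 14 library. Aurkb was at 120.3, 126 and 137 CPM and 64.3, 64.8 and 75.9 CPM, or -0.9 (SE 0.1, adjusted p = 2.52e-07), and Nusap1 at 148, 136 and 153 CPM and 81.4, 70.8 and 85.7 CPM, or -0.88 (SE 0.11, adjusted p = 1.73e-06).

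Cdc25b fell again, from 30.3, 28.2 and 29 CPM to 18.3, 12 and 18 CPM (-0.86, SE 0.12, adjusted p = 7.33e-06). Ect2, which acts in cytokinesis, was the 1 gene that rose, from 217, 208 and 225 CPM to 311, 296 and 392 CPM (0.62, SE 0.09, adjusted p = 1.79e-05). Cdk1 (-0.15, adjusted p = 0.158), Ccnb1 (-0.02, adjusted p = 0.868), Plk1 (-0.09, adjusted p = 0.43) and Top2a (0.06, adjusted p = 0.588) did not pass the test. Mki67 fell by 0.48 (SE 0.18, adjusted p = 0.0368), a call that held without iPSC replicate 3 and was lost without any other library of these groups. Without replicate 2 of the iPSC, 15 members were called rather than 23. Of the 87 other mitotic genes, 13 rose and 38 fell, with Ckap2 (-1.09), Kif18b (-1.03) and Cenpt (-0.96) among the largest falls, whereas of the 39 replication genes 7 rose and 4 fell. Rb1, the pocket protein that restrains E2F, was at 17.9 ± 2.51 against 64.2 ± 6.54 CPM (-1.84, SE 0.13, adjusted p = 9.76e-10). Sorted culture and clonal line differ here together with time, and cannot be told apart.

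Against MEF, naivex2 iPSC had 26 members higher and 5 lower (37.9% of all genes were called higher and 39.4% lower, 77.3% together), with a median of 0.41 over the members and 0.02 over all genes. The comparison shares its MEF libraries with that of day 10 and its iPSC libraries with that of day 14. The largest rises were Espl1 (1.58, SE 0.14, adjusted p = 1.55e-09), Pttg1 (1.49, SE 0.18, adjusted p = 5.34e-07), Ect2 (1.46, SE 0.1, adjusted p = 1.04e-11) and the checkpoint kinase Bub1 (1.39, SE 0.11, adjusted p = 2.39e-10). Bub1 was at 91.7, 104 and 92.7 CPM in MEF and 259, 204 and 293 CPM in iPSC. The lower members were led by Cdc25b (-1.77, SE 0.12, adjusted p = 1.66e-11), Anln (-0.87, SE 0.09, adjusted p = 3.58e-08), Nuf2 (-0.52, SE 0.11, adjusted p = 0.000254) and Prc1 (-0.31, SE 0.08, adjusted p = 0.00145), the last call being lost with library totals alone and when only these 2 groups were fitted. Anln was at 387, 399.6 and 391 CPM in MEF and 195, 189.7 and 259 CPM in iPSC, and the libraries of the groups did not overlap.

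In the totalx2 series, GFP- cells at day 10 had 15 members higher than day 8 cells and 0 lower (10% of the 15197 genes tested were called higher and 10.7% lower, 20.7% together). Bub1 (111, 95.2 and 90.8 CPM at day 8, 147, 138 and 129.9 CPM at day 10) rose by 0.48 (SE 0.12, adjusted p = 0.00616). Kif23 (0.48, adjusted p = 0.0142), Prc1, which crosslinks the central spindle (0.48, adjusted p = 0.00697), and Cenpa, the centromeric histone (0.47, adjusted p = 0.0493), followed. Leaving out replicate 2 of the day 10 cells ended the calls of Kif23 and Cenpa, the latter also lost without replicate 1 of the day 10 cells and replicate 2 or 3 of the day 8 cells. The count fell to 3 without replicate 2 of the day 8 cells, to 4 without replicate 1 of the day 10 cells and to 7 without their replicate 2. Summed fibroblast markers were 11870 to 19160 CPM in the day 8 libraries and 2205 to 7176 CPM in the day 10 libraries, and their part in the result was not tested.

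From day 10 to day 12 of the GFP- cells, 0 members rose and 22 fell, with a median of -0.36 (16.1% of all genes were called higher and 12% lower, 28.1% together; the median of all genes was 0.03). All 3 mitotic kinases and all 4 checkpoint genes fell, with 4 of 6 entry genes, 4 of 8 kinesins and organisers, 2 of 4 exit genes, 2 of 7 centromere and kinetochore genes, 2 of 5 chromosome structure genes and 1 of 3 cytokinesis genes. Plk1 was at 196, 166 and 157 CPM at day 10 and 127, 118 and 114 CPM at day 12, a difference of -0.53 (SE 0.11, adjusted p = 0.00165), with no overlap between libraries. Birc5, the passenger protein survivin, went from 98.4, 91.2 and 87 CPM to 63.1, 69.4 and 58.6 CPM (-0.53, SE 0.13, adjusted p = 0.00438). The checkpoint kinase Ttk (-0.5, SE 0.12, adjusted p = 0.00466) and Mad2l1 (-0.55, SE 0.16, adjusted p = 0.0168) completed the 4 largest falls. The call of Mad2l1 was lost without replicate 1 or 2 of the day 10 cells and without replicate 2 or 3 of the day 12 cells.

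Cdc25b was at 70.4, 67.6 and 65.5 CPM at day 10 and 66.1, 65.5 and 65.2 CPM at day 12, ranges that overlap, and did not pass the test. Fewer calls were left without replicate 3 of the day 12 cells (7), without replicate 1 of the day 10 cells (8) and without replicate 2 of the day 10 cells (14). Of 39 replication genes, 0 rose and 37 fell, and of 87 other mitotic genes, 0 rose and 44 fell. Of 23 regulators, 2 rose and 13 fell, with E2f8, a repressor of the E2F family, at -0.83 (adjusted p = 0.00101). Fibroblast markers summed to 7462 to 10470 CPM at day 12, above the 2205 to 7176 CPM of day 10. All 3 day 12 libraries lay above the day 10 range, and the part of such cells in the fall was not tested.

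In totalx2, the cells were sorted by GFP at days 10 and 12. At day 10, 3 members were higher and 1 lower in GFP+ than in GFP- cells (13% of all genes were called higher and 9.36% lower, 22.4% together), and 8 were called in the fit with the line as a block. Pttg1 was at 63.5, 49.1 and 35.2 CPM in GFP- and 119, 108 and 66.9 CPM in GFP+ cells (0.99, SE 0.26, adjusted p = 0.00942). It was higher in GFP+ cells of each of the 3 lines, and the groups did not overlap. Its call was lost without replicate 1 of the GFP+ cells or replicate 3 of the GFP- cells, each of which left 2 calls in all. Bub1b was at 253, 238 and 221 CPM and 348, 299 and 317 CPM (0.44, SE 0.09, adjusted p = 0.00147), and Bub1 was higher by 0.34 (adjusted p = 0.0402), a call that DESeq2 and 4 of the 6 fits without 1 library did not make. Cdc25b was lower in GFP+ cells, at 43.8, 33.9 and 41.3 CPM against 70.4, 67.6 and 65.5 CPM (-0.78, SE 0.12, adjusted p = 8.75e-05).

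At day 12, 33 of the 40 were higher in GFP+ cells and 1 was lower, with a median of 0.55. Of all genes, 31.2% were called higher and 30.4% lower (61.6% together), with a median of 0.05. All 8 kinesins and organisers, all 4 checkpoint genes and all 3 mitotic kinases were higher, with 5 of 6 entry genes, 5 of 7 centromere and kinetochore genes, 3 of 4 exit genes, 3 of 5 chromosome structure genes and 2 of 3 cytokinesis genes. Pttg1 was at 58.8, 54.2 and 29.99 CPM in GFP- and 136, 140.5 and 90.9 CPM in GFP+ cells (1.35, SE 0.26, adjusted p = 0.000212). Bub1 was at 110.4, 108 and 96 CPM and 219, 219 and 201 CPM, about doubled (2.03-fold), with a log2 difference of 1.02 (SE 0.12, adjusted p = 4.31e-07). Espl1 was at 134, 144 and 127 CPM and 265, 262 and 281 CPM (1, SE 0.2, adjusted p = 0.000264), and Ttk at 51.5, 46.1 and 51.6 CPM and 88.5, 83.3 and 100.2 CPM (0.87, SE 0.12, adjusted p = 4.51e-06). In these 4 genes, chosen as the largest called rises, each GFP+ library was above every GFP- library. The share of all genes with such a separation was not counted.

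Among the other named genes, Ccnb1 was higher by 0.69 (SE 0.11, adjusted p = 1.53e-05), Top2a by 0.59 (SE 0.09, adjusted p = 1.92e-05), Aurkb by 0.5 (SE 0.12, adjusted p = 0.00158), Plk1 by 0.43 (SE 0.11, adjusted p = 0.00225) and Cdk1 by 0.28 (SE 0.09, adjusted p = 0.00892). The call of Cdk1 was lost without replicate 3 of either group. Mki67 did not pass the test, at 786, 802 and 722 CPM in GFP- and 725, 636 and 620.0 CPM in GFP+ cells (-0.22, adjusted p = 0.346), nor did Cdc20, Cenpe, Nuf2, Smc4 and Anln. Cdc25b was again the 1 member that was lower, at 66.1, 65.5 and 65.2 CPM in GFP- and 36, 31.5 and 33 CPM in GFP+ cells (-0.97, SE 0.12, adjusted p = 1.42e-06).

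Of the 87 other mitotic genes, 67 were higher and 3 lower, with Esco2 (1.56), the kinetochore gene Cenpw (1.29) and shugoshin (Sgol1, 1.16), the guardian of centromeric cohesin, among the largest. Of 39 replication genes, 37 were higher and 1 lower, and of 23 regulators, 14 and 3. Mybl2 was at 993 ± 50.2 against 174 ± 9.44 CPM (2.51, SE 0.1, adjusted p = 7.43e-13), and Rb1 at 51.6 ± 7.22 against 122 ± 6.07 CPM (-1.25, SE 0.17, adjusted p = 4.24e-06). Foxm1, again named after its values were seen, was at 98.9 ± 1.05 against 98.8 ± 6.63 CPM and did not pass the test. Fibroblast markers summed to 1903 to 2320 CPM in GFP+ libraries and 7462 to 10470 CPM in GFP- libraries. Pluripotency markers summed to 3306 to 3453 CPM and 726 to 869.5 CPM. The part of either in the result was not tested.

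The GFP difference at day 12 minus that at day 10 was tested directly. It was above 0 with an adjusted p under 0.05 for 17 members and below 0 for 0 (10.5% and 16.7% of all genes, 27.3% together; medians 0.42 and 0.01). The 17 included all 4 checkpoint genes, led by Ttk (0.69, SE 0.17, adjusted p = 0.00533) and Bub1 (0.68, SE 0.16, adjusted p = 0.00473), and all 3 mitotic kinases, with Aurkb at 0.52 (SE 0.17, adjusted p = 0.033) and Plk1 at 0.51 (SE 0.16, adjusted p = 0.0214). Pttg1 (0.36, adjusted p = 0.512) and Cdc25b (-0.19, adjusted p = 0.439) did not pass, so a change of their GFP difference between the days was not detected. The 4 groups in this test include the day 10 and day 12 GFP- libraries, between which 22 members fell. Fibroblast markers also moved with this contrast. At day 10 they summed to 4007 to 10950 CPM in GFP+ and 2205 to 7176 CPM in GFP- libraries, and at day 12 to 1903 to 2320 CPM and 7462 to 10470 CPM. In GFP+ cells 9 of the 10 fell from day 10 to day 12, and their part in the result was not tested. In GFP+ cells, 2 members rose from day 10 to day 12 and 0 fell (12.2% of all genes were called higher and 12.9% lower, 25.1% together), or 6 in all with the line as a block: Ccnb2 (0.42, SE 0.12, adjusted p = 0.018) and Ect2 (0.35, SE 0.12, adjusted p = 0.0348), neither of which was called without replicate 2 or 3 of the day 10 cells or replicate 1 of the day 12 cells. The direct test gave 4 calls without replicate 1 of day 10 GFP- or replicate 2 of day 10 GFP+ cells, 5 without replicate 3 of day 12 GFP- cells, 6 without replicate 3 of day 10 GFP+ or replicate 1 of day 12 GFP+ cells, 7 and 9 without replicate 2 of day 10 and day 12 GFP- cells, and 11 without replicate 2 of day 12 GFP+ cells.

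**Figure D5:**
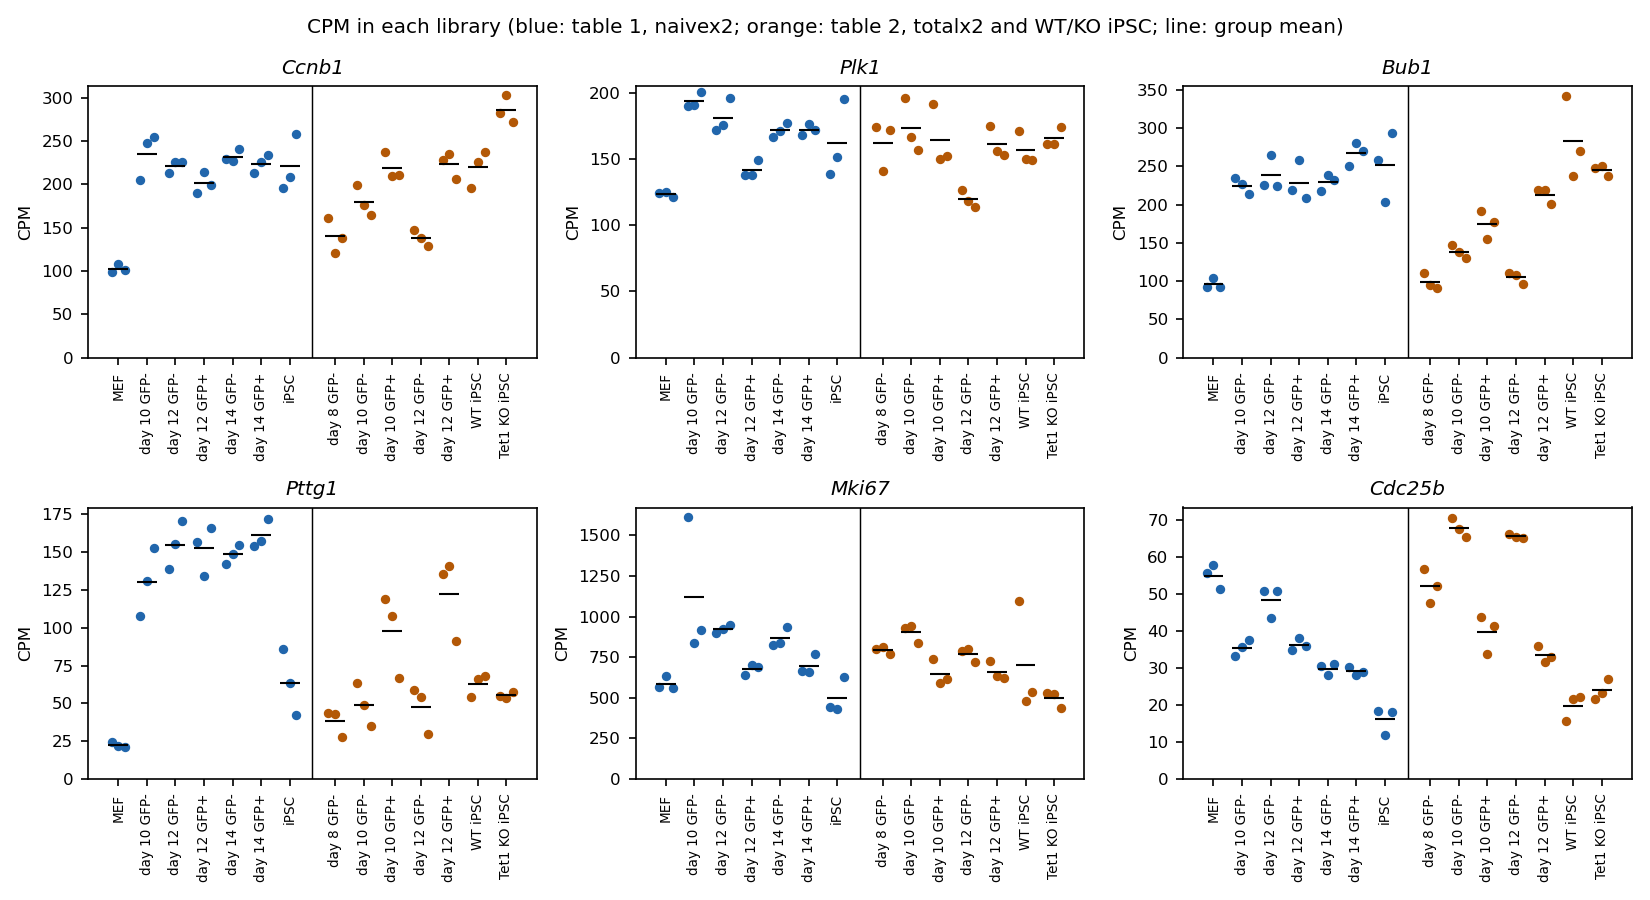
CPM of Ccnb1, Plk1, Bub1, Pttg1, Mki67 and Cdc25b in each of the 42 libraries (points) with group means (lines), blue for the first table and orange for the second. Ccnb1 and Bub1 are low in MEF and in totalx2 day 8 and day 12 GFP- cells, and Cdc25b is lowest in the iPSC groups. Pttg1 is lowest in MEF in the first table and, in totalx2, lower in the GFP- than in the GFP+ group means.

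WT iPSC were set against totalx2 day 12 GFP+ cells, which differ from them in strain, alleles and sort, so these cannot be told apart from the stage. Here 7 members were higher and 8 lower (25% of all genes were called higher and 26% lower, 51.1% together). The condensin subunit Smc2 was at 219.7, 211 and 198 CPM in GFP+ cells and 589, 278 and 308 CPM in WT iPSC (0.9, SE 0.18, adjusted p = 0.000492), and Ect2 at 225, 218 and 211 CPM and 433, 298 and 373 CPM (0.75, SE 0.12, adjusted p = 3.24e-05). Lower in WT iPSC were Pttg1 (-0.95, SE 0.26, adjusted p = 0.00505), Cdc25b (-0.74, SE 0.13, adjusted p = 7.28e-05), Aurkb (-0.71, SE 0.12, adjusted p = 9.78e-05) and Cenpa (-0.65, SE 0.17, adjusted p = 0.00322). Pttg1 was at 136, 140.5 and 90.9 CPM in GFP+ cells and 54.4, 66.4 and 67.9 CPM in WT iPSC. Without the WT library with 12.2% mitochondrial counts, 6 members were higher and 13 lower, with Smc2 at 0.49, Ect2 at 0.63 and Pttg1 at -0.85, and Mki67, which was not called with it, was called lower at -0.36 (adjusted p = 0.00436). Without WT replicate 2, 11 were higher and 7 lower, and without WT replicate 3, 9 and 7.

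In the last comparison, which asks what loss of Tet1 did in iPSC, Tet1 itself was at 1303, 823 and 874 CPM in the 3 WT libraries and 54.4, 58.6 and 57.3 CPM in the 3 KO libraries. The lowest WT library was thus above every KO library. Of the 40 members, 2 were higher in KO and 0 lower, where 4.78% of all genes were called higher and 5.87% lower, 10.7% together. Cdc20 was at 134, 215 and 202 CPM in WT and 253, 261 and 259 CPM in KO iPSC, a difference of 0.49 (SE 0.13, adjusted p = 0.0202). Ccnb1 was at 195, 226 and 238 CPM in WT and 282, 304 and 273 CPM in KO iPSC (0.38, SE 0.1, adjusted p = 0.0256). Both genes had every KO library above every WT library, with the lowest WT value in the high-mitochondrial library in each. They were named because they were called. Of the 40 members, 4 lay wholly above and 2 wholly below in KO, and the share over all genes was not counted.

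Both calls were lost when any 1 KO library was left out and when only these 2 groups were fitted (0 calls). Without the high-mitochondrial WT library, 3 members were higher and 0 lower: Cdc20 stood at 0.31 (adjusted p = 0.0306) and Top2a at 0.35 (adjusted p = 0.00724), while Ccnb1, at 0.31 (adjusted p = 0.0613), was no longer called. Without WT replicate 2, 3 were higher and 7 lower. Cdk1 (0.21, adjusted p = 0.137), Plk1 (0.08, adjusted p = 0.689), Aurkb (0.22, adjusted p = 0.264), Top2a (0.24, adjusted p = 0.0934) and Mki67 (-0.5, adjusted p = 0.114) did not pass the test. Of the 87 other mitotic genes, 4 were higher and 3 lower. Wee1, the kinase that keeps CDK1 inactive, was at 160.1 ± 12.5 against 106 ± 9.98 CPM (0.59, SE 0.12, adjusted p = 0.00307), and Cenpk, of the inner kinetochore, was lower, at -0.97 (adjusted p = 0.0128). Among the regulators, E2f2 was lower, at -1.07 (SE 0.18, adjusted p = 0.000835). Wee1, Cenpk and E2f2 were tested with all libraries, and their calls were not checked with any library left out.

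Across all 15 comparisons of 2 groups, Cdc25b was called most often of the 40, higher in 2 and lower in 9. It was called higher between day 10 and day 8 of totalx2 and between days 12 and 10 of naivex2 GFP- cells. Ect2 was called higher in 7 and lower in 0, and Racgap1, its partner at the central spindle, higher in 3 and lower in 6. Anln was higher in 0 and lower in 5, and Mki67 was called once in each direction. These comparisons share groups, so their counts are not independent.

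Members tracked one another unevenly. Over the 21 libraries of the first table, the correlation of log2 CPM of each member with the mean of the other 39 had a median of 0.86 (from -0.28 for Smc2 to 0.97), and 34 of 40 were over 0.5. Over the 21 of the second table, the median was 0.76 (from -0.70 for Cdc25b to 0.96), and 31 were over 0.5. After the mean of each group was taken off, the medians were 0.68 and 0.81. Pttg1 in the first table had 0.87 before and -0.59 after, and Mki67 in the second -0.24 before and 0.76 after. The libraries share groups, depth and, in 2 cases, a high mitochondrial share, so these are descriptions with no test. Median fold changes by motif class lay close together: in naivex2 day 10 cells against MEF the median was 1.0 for the 21 with both motifs, 0.82 for the 3 with a CHR alone, 0.84 for the 4 with a CCAAT box alone and 0.98 for the 5 with neither. In totalx2 day 12 GFP+ against GFP- cells these medians were 0.57, 0.64, 0.52 and 0.57. Values within a class spread widely. Against MEF they ran from -0.11 to 1.84 with both motifs and -0.2 to 0.97 with a CHR alone. They ran from -0.63 to 1.23 with a CCAAT box alone and 0.08 to 2.52 with neither. Differences between these mostly small classes were not tested.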

How the data were processed

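Gene counts of 42 libraries (14 groups of 3) were used as deposited, in 2 tables of 21 libraries. Per the submitters' processing notes the authors used HISAT2 2.1.0, featureCounts 1.5.3 and DESeq2 1.18.1, with mm10. Per the file headers, the deposited values are raw featureCounts read counts per gene name, stranded, over whole gene bodies, with reads of multiple places or genes not counted. Intronic reads therefore enter the counts, and 6 members overlap another gene on the same strand.

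Counts were normalized by TMM and fitted with edgeR 4.0.16 (R 4.3.3, limma 3.58.1), all 7 groups of a table in 1 quasi-likelihood model, after edgeR's filter on low counts. Genes were called at an adjusted p (Benjamini-Hochberg over all genes tested) of 0.05. Levels are CPM, and mean log2 CPM used a prior count of 2. The test was checked on simulated counts. The submitted counts of replicates differed by more than sampling noise in every pair, so each library counted once. Replicate numbers name the same line within naivex2 and within totalx2: same-numbered libraries deviated together in 30 of 30 totalx2 pairs (r of 0.126 to 0.593) and in 32 of 63 naivex2 pairs above 0.1. The main model held no line term, so its tests ignored this pairing.

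With a fold change, the text names Cdk1, Ccnb1, Plk1, Aurkb, Mki67 and Top2a in a comparison and up to 4 of the largest called rises and falls, and of the other lists up to 4 called genes. Members, lists and this rule were chosen with earlier results of these data known. Alternatives were other size factors, no filter, DESeq2 1.42.0, a line block, fits on the compared groups alone, leaving out high-mitochondrial libraries and leaving out each library. The title of 1 library (totalx2 day 12 GFP- replicate 2) does not give the mCherry gate, which was taken from its source name. Promoters of Ccna2, Cdc25c, Aurkb, Incenp, Kif20a, Tpx2 and Smc4 were not used here.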

Additional observations from a re-analysis of the deposited data

Results flagged for a closer look

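In the totalx2 series, the difference between GFP+ and GFP- cells was larger at day 12 than at day 10 for 17 of the 40 genes, by a test of the difference between the 2 differences (edgeR's quasi-likelihood test, adjusted p under 0.05). Of all genes tested, 10.5% were called higher and 16.7% lower in that test, 27.3% together. Of the 17 calls, 13 were lost in at least 1 alternative, and 4 genes were called without replicate 1 of day 10 GFP- cells or without replicate 2 of day 10 GFP+ cells. That test ignored the line that same-numbered libraries share, and the count with the line as a block is given in the next section. Summed fibroblast markers moved with the contrast, and their part was not tested. On the log2 scale, day 12 minus day 10 was 0.69 for Ttk, 0.68 for Bub1, 0.65 for Mad2l1 and 0.42 for Bub1b, the 4 checkpoint genes. It was 0.52 for Aurkb, 0.51 for Plk1 and 0.42 for Aurka among the kinases, and 0.54 for Ccnb2, 0.42 for Ccna2 and 0.41 for Ccnb1 among the cyclins. The kinetochore gene Ndc80 stood at 0.55, the kinesins Kif4 and Kif2c at 0.53 and 0.50, Prc1 at 0.48 and Ect2 at 0.51. The chromosome structure genes Ncapd2 and Top2a were at 0.58 and 0.49.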

How the results depend on the processing

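The counts for naivex2 day 10 cells against MEF, iPSC against MEF and totalx2 day 12 GFP+ against GFP- cells kept their balance of higher and lower and stayed within 1.5 times under the alternatives run, where 1 of 36, 5 of 31 and 5 of 34 calls were lost in at least 1. For naivex2 GFP- day 12 against day 10 (8 calls), DESeq2's size factors or no filter gave 4, library totals alone 3 (2 higher), removal of the libraries over 8% mitochondrial 2 (both higher), the compared groups alone 1 (higher), and leaving out 1 library 1 to 8. Fits on the compared groups alone gave 16 calls for naivex2 GFP- day 14 against day 12, 15 for the day 12 gate, 14 for the day 14 gate (9 higher, 5 lower), 17 for GFP+ day 14 against day 12, 5 for the naivex2 difference of gates, 8 for the totalx2 day 10 gate, 7 for totalx2 GFP+ day 12 against day 10, 30 for the totalx2 difference of gates and 0 for KO against WT iPSC. Without a filter the totalx2 day 10 gate had 2 calls, and with library totals alone KO against WT had 4.

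Leaving out each library gave 3 to 7 calls for naivex2 GFP- day 14 against day 12, 3 to 7 for the day 12 gate, 2 to 4 for the day 14 gate, 3 to 7 for GFP+ day 14 against day 12 and 15 to 29 for iPSC against day 14 GFP+. In the second table it gave 3 to 16 for GFP- day 10 against day 8, 7 to 24 for day 12 against day 10, 2 to 6 for the day 10 gate, 0 to 3 for GFP+ day 12 against day 10, 4 to 20 for the difference of gates, 14 to 19 for WT iPSC against day 12 GFP+ and 0 to 10 for KO against WT. DESeq2 called 21 in the difference of gates and 3 in KO against WT.

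With the replicate number as a block, the count was 8 for the totalx2 day 10 gate, 6 for GFP+ day 12 against day 10 and 25 for the difference of gates. The WT and KO iPSC clones share only a number (0 of 3 same-numbered pairs above 0.1). For them the block gave 23 calls (12 higher, 11 lower) in WT iPSC against day 12 GFP+ and 5 in KO against WT. Blocking moved no other count by over 1.5 times. Of 2361 alternative values of named members, 2146 kept their side of the threshold, with the same direction where called. Another 181 lost a call and 32 gained one. The other 2, both Mki67 in WT iPSC against day 12 GFP+, were called at -0.36, where the main fit made no call. No direction is read from a value that was not called. Library totals alone moved the median of all genes to 0.34 and 0.31 in the comparisons with MEF. The causes of these shifts were not tested.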
